A study of Rattus norvegicus with 60 samples.

Results

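The cytosolic ribosomal protein genes code for the proteins of the ribosome that works in the cytoplasm. They were taken from the deposited gene table by name: protein-coding genes whose symbol starts with Rpl (large 60S subunit), Rps (small 40S subunit) or Rplp (the stalk of the large subunit), followed by a number and, where present, one of a few suffixes for paralogues. The rule found 103 rows of 32545 genes, with 82 different names: 64 Rpl rows, 35 Rps rows and 4 Rplp rows. Of the names, 11 occurred in more than 1 row, 32 rows in all, and such rows are told apart here by their chromosome. After a filter on low counts, 82 of the 103 were tested in cortex and 83 in outer medulla, and 84 in the comparison of the tissues.

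RNA from kidney cortex and outer medulla was sequenced as poly(A)-enriched libraries. The rats were wild-type Dahl salt-sensitive animals (SS), which become hypertensive on salt, and derived animals without a working gene for NADPH oxidase 4, a renal enzyme that makes hydrogen peroxide (NOX4). Each strain was sampled under control conditions (LS), after 7 days (HS7) and after 21 days (HS21) on a diet with 4.0% NaCl, which with the 2 tissues makes 12 groups of 5 libraries. The title of the study names NADPH oxidase 4 and metabolic stress as its subject. The labels call NOX4 a knockout derived from SS and say no more of the allele. The labels give no sex, age, strandedness or library date, and do not say that libraries came from separate rats, so p-values measure the spread between these libraries.

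The libraries held 11.5 to 29.6 M counts (median 19). In cortex, Nox4 itself stood at 251 to 530 CPM (counts per M counts of a library, scaled between libraries) in SS and at 54.7 to 77.7 CPM in NOX4. In outer medulla it was low and the strains overlapped, at 6.35 to 111 and 1.83 to 15.1 CPM. All 6 thick ascending limb markers were detected in each group, summing to 1760 to 5300 CPM in cortex libraries and to 5950 to 21100 CPM in the outer medulla groups, while 7 of 7 early proximal tubule markers summed to 10100 to 16500 CPM in cortex and to 254 to 5870 CPM in 29 of the 30 outer medulla libraries. The remaining one, SS HS7 outer medulla replicate 3, had 10100 CPM, within the cortex range, and the highest Nox4 of its tissue (111 CPM). Of the 60 libraries, 11 held few genes for their depth (14100 to 16100 genes at 10 M counts, against 16900 to 18400 in the other 49) and are called low-complexity libraries; all were SS libraries at LS or HS7. In bulk tissue, fewer cells of a type and less RNA per cell cannot be told apart.

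A ribosome holds a single copy of nearly all of these proteins, and the cell makes them in matched amounts. Most vertebrate ribosomal protein mRNAs begin with a C followed by a run of pyrimidines, the 5′ terminal oligopyrimidine (TOP) motif. Through this motif their translation, more than their transcription, follows mTOR signalling, so an mRNA level is only part of their control. Ribosomal protein genes also have many processed copies in mammalian genomes, which can take reads from the parent gene. How reads that match several places were treated is not given in the sources used here, so the count of any gene with near-identical copies is uncertain.

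Transcript start windows are shown first because the TOP motif is a known feature of ribosomal protein mRNAs. RefSeq promoters (GRCr8 assembly) matched 51 of the 103 rows, by name and chromosome, and 49 of these lay on the deposited strand. Each window has the 15 bases before and the 15 bases from the annotated start onward, 5′ to 3′ on the gene's strand. Capitals mark the longest run of C and T with a base among the 3 before the annotated start or the first 3 from it onward.
Rps18, chr20:4933730-4933759, plus strand: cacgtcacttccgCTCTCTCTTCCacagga
Rps2, chr10:14251833-14251862, plus strand: CCTCTTCTTTTTCTTCgggaaaacacgtga
Rps10, chr20:5700730-5700759, minus strand: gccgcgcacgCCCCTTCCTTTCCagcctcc
Rpl34, chr2:221962269-221962298, minus strand: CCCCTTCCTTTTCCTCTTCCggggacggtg
Rplp1, chr8:71290858-71290887, minus strand: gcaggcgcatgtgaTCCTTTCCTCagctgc
Rpl19, chr10:83519049-83519078, plus strand: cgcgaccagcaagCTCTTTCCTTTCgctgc
Rps7, chr6:50999431-50999460, minus strand: tcgcgagagctgtgTCTCTTTCTaagccgg
Rplp0, chr12:46718376-46718405, minus strand: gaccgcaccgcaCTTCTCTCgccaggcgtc
Rpl22l1, chr2:113683181-113683210, plus strand: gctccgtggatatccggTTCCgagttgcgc
Rps27l, chr8:76443643-76443672, plus strand: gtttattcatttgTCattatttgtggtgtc

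Rps18, Rps2 and Rps10 were called higher, and Rpl34, Rplp1 and Rpl19 lower, in comparisons given below. Rps7 and Rplp0 were called in none of the strain or salt comparisons, and Rpl22l1 and Rps27l are paralogues. Most of these windows hold a long tract, but many members have none: Rps3 had a run of 1, and Rps28, Rpl11 and Rpl26 of 3, all of them called. Rps16 and Rpl36, with runs of 2, are the 2 windows that do not lie on the deposited strand. A run of 5 or more was found in 13 of 22 windows of members called higher in a strain or salt comparison (median run 9.5). It was found in 5 of 7 of those called lower (12) and 15 of 22 of those not called (7.5). The windows not called include rows that were not tested, among them Rpl10a, Rplp2 and Rpl3l. Of the 51 matched promoters, 33 (64.7%) had such a run, against 22.2% of all 27457 RefSeq promoters, with a median run of 9 against 2 bases, and 18 had none. A C at the annotated start followed by 4 pyrimidines occurred in 18 (35.3% against 2.63%). On the gene strand within 15 bases of the start, CTTTC occurred in 20 (39.2% against 3.62%) and CTTTCC, which contains it, in 12 (23.5% against 1.3%). In the 250 bases before the start, CCGGAA, the core recognised by ETS factors, occurred on either strand in 18 (35.3% against 13.4%). TATAAA occurred on the gene strand within 50 bases before the start in 3 (5.88% against 2.46%).

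Per gene length, the members ran from 0 to 1710 TPM. Levels are given as TPM (a length-adjusted share of the library, computed from the deposited counts and gene lengths) over the 30 libraries of cortex. Rplp1 on chromosome 8, an acidic stalk protein, had 1710 ± 447 TPM (SD). Rpl41, the shortest ribosomal protein, had 1360 ± 273 TPM, Rps18, in the head of the small subunit, 1300 ± 235 TPM, and Rplp0, which anchors the stalk, 1120 ± 119 TPM. The SDs of these neighbours overlap. The same 4 genes led in outer medulla, and the order of the 103 rows by TPM was nearly the same in both tissues (rank correlation 0.994, a description over genes). The 10 members with most counts held 31.3% of all member counts.

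**Figure D1:**
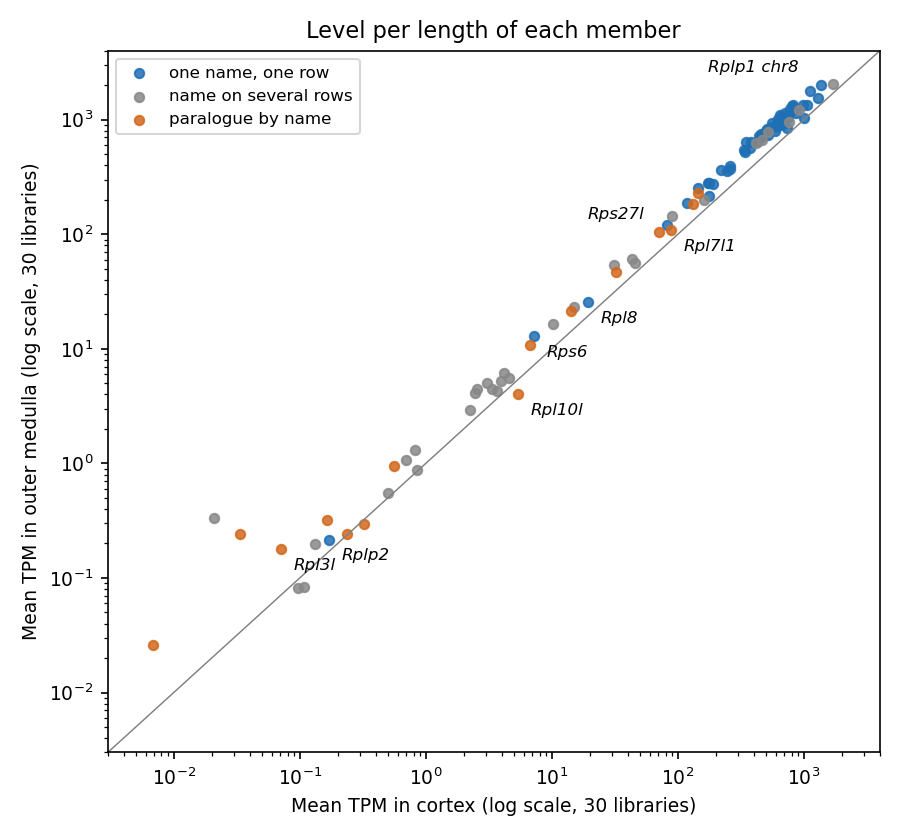
Mean level per gene length (TPM, log axis) of the members in cortex (horizontal) and outer medulla (vertical), 1 point per row, for the 100 rows with a count, with colours for rows whose name is unique, rows that share a name, and paralogues. The line marks equal levels; above 1 TPM the points run close to it up to Rplp1 at 1710 TPM in cortex, and below 1 TPM they scatter.

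Several genes for core proteins had hardly any reads. Rps6, the small-subunit protein that S6 kinase phosphorylates, had 7.19 ± 1.84 TPM in cortex. Rpl8, a protein near the catalytic centre, had 19.3 ± 4.34 TPM, and Rplp2, the partner of Rplp1 in the stalk, had 0.172 ± 0.263 TPM. Rpl10a, Rpl23a and Rpl31l3 had 0 counts in all 60 libraries, which allows at most 3 counts each (counting error only). In all, 17 rows were under 1 TPM in both tissues, while 59 averaged over 1000 counts a library. These rows say how many reads were assigned, not how much of the protein is made, and where their reads went was not tested.

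Among rows that share a name, 1 row carried most of the reads for some names. Rpl39, a small protein of the exit tunnel, had 415 ± 72.1 TPM at its row on chromosome X starting at 123705384, and its other rows had 3.38 TPM or less. Rps29, a zinc-finger protein of the small subunit, had 910 ± 201 TPM on chromosome 6 and 4.18 TPM or less elsewhere. The 2 Rpl7a rows on chromosome 3 were close, at 43 ± 36.2 and 30.9 ± 17.4 TPM. Rpl35a had no abundant row: its highest, on chromosome 5, had 10.3 ± 4.29 TPM. The lowest rows above 1 TPM in cortex were Rpl35a on chromosome 1 (3.04), Rpl39 on chromosome 18 (2.56), Rpl35a on chromosome 12 at 7424258 (2.48) and Rps29 on chromosome 7 (2.25).

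The paralogues fell into rows near 0 and rows with a clear level. Rpl3l, the form known from striated muscle, had 0.0707 ± 0.0808 TPM in cortex against 497 ± 51.2 TPM of Rpl3. Rpl39l, known from testis, had 0.0333 ± 0.0909 TPM. In contrast, Rps27l, a target of p53, had 70.3 ± 12.4 TPM against 422 ± 84.2 TPM of Rps27. Rpl22l1 had 133 ± 24.2 TPM, and Rpl36al on chromosome X had 144 ± 22.3 TPM. Rpl7l1 had 88.1 ± 8.49 TPM against 177 ± 16.3 TPM of Rpl7, whose deposited length of 5151 bases lowers its TPM (the median length of the members was 510). Rpl5l1 and Rpl10l had 14.3 ± 3.52 and 5.35 ± 3.6 TPM, and Rpl5 had 593 ± 65.3 TPM.

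Members took 1.17% to 1.66% of the counts of a cortex library and 1.55% to 3.13% in outer medulla. In cortex the mean share was 1.33% ± 0.0445 (SD, n = 5) in SS at LS, 1.29% ± 0.0889 at HS7 and 1.49% ± 0.112 at HS21. NOX4 cortex had 1.33% ± 0.143, 1.4% ± 0.0926 and 1.5% ± 0.107. In outer medulla SS had 1.79% ± 0.187, 1.80% ± 0.116 and 2.32% ± 0.0644, and NOX4 had 1.81% ± 0.232, 2.22% ± 0.69 and 2.08% ± 0.164. The 5 SS HS21 libraries of outer medulla (2.22% to 2.37%) lay above all 5 SS LS libraries, whose highest was 2.12%. The wide spread of NOX4 at HS7 came from replicates 3 and 4, at 2.77% and 3.13%.

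**Figure D2:**
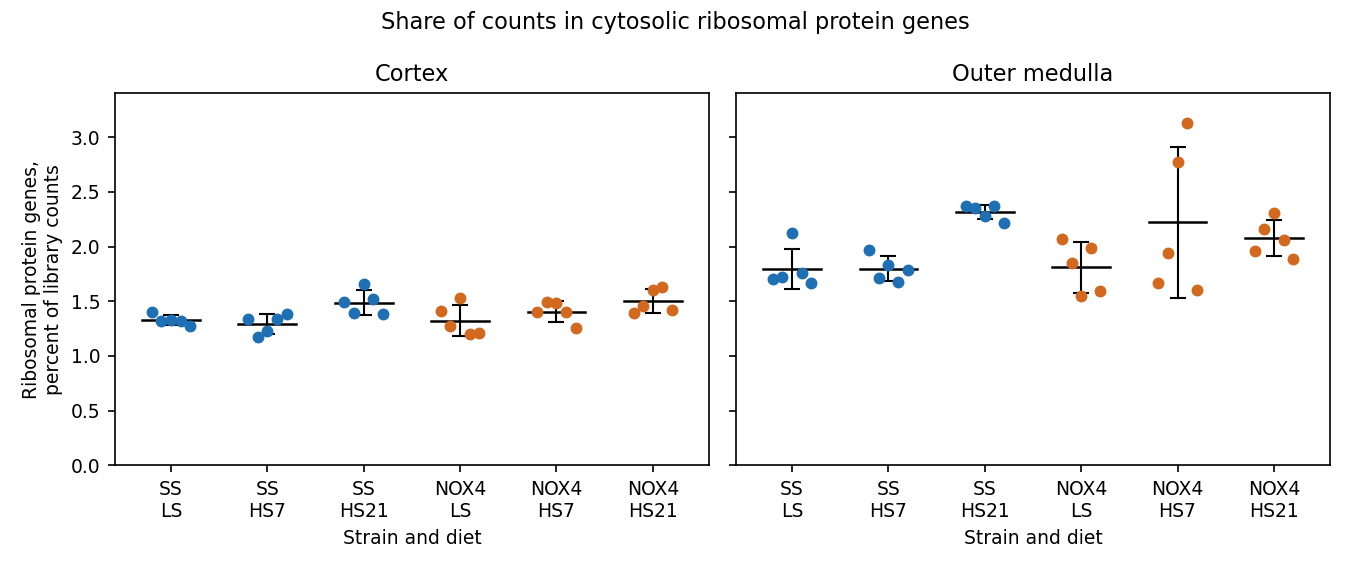
Percent of a library's counts that fell in the 103 member rows, 1 point per library with the group mean and SD as a bar, by strain, diet and tissue. Most outer medulla libraries lie above the cortex libraries, with an overlap between 1.55% and 1.66%, and 2 NOX4 HS7 libraries of outer medulla, at 2.77% and 3.13%, stand above all others.

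Calls rest on edgeR's quasi-likelihood test with Benjamini-Hochberg adjustment over all genes of a fit, at an adjusted p under 0.05. At least 1 strain or salt comparison called 40 members. In this joint fit, every strain or salt comparison with called members had SS libraries at LS or HS7 on 1 side. That pattern did not hold in every test. For NOX4 against SS at HS21, fits of the compared groups alone called members in both tissues. The authors' deposited table had 6 members higher in cortex and 3 lower in outer medulla there, beside 9.38% and 25.6% of all genes. Most called members differed by less than 1 on the log2 scale, and the median log2 change over the tested members lay between -0.04 and 0.39.

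**Figure D3:**
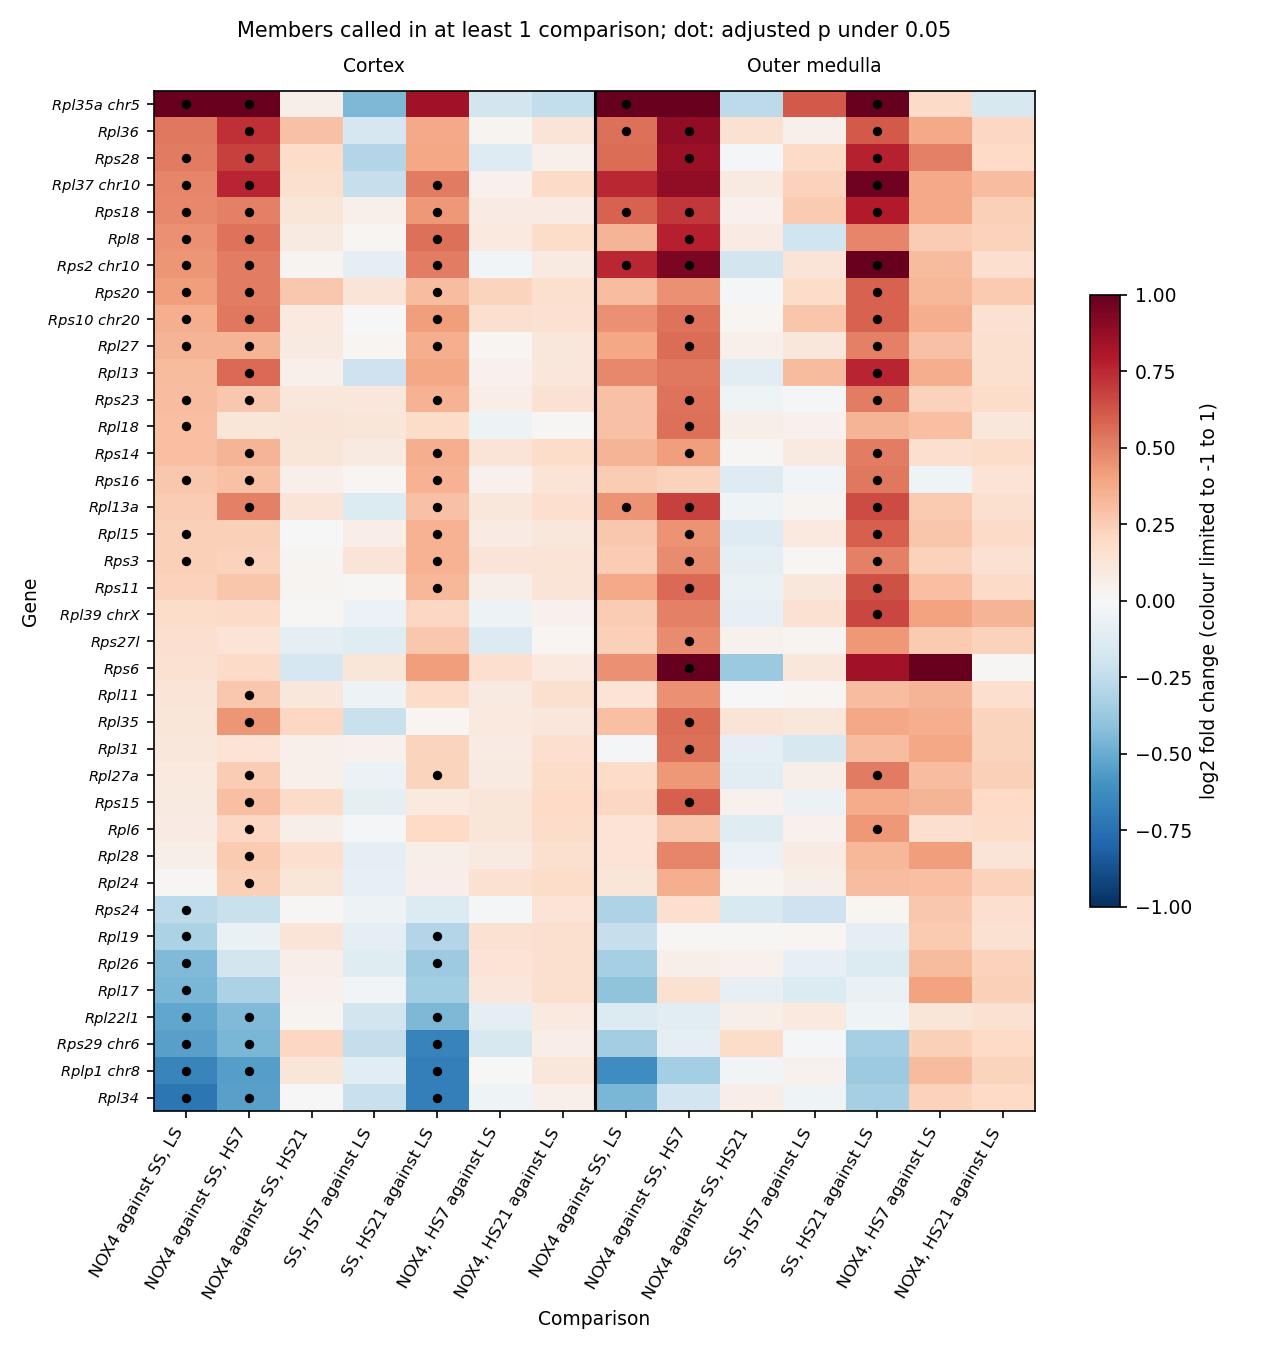
Log2 fold changes (colour, limited to 1 either way) of 38 of the 40 members called in at least 1 of the 14 strain and salt comparisons, by comparison in columns. Dots mark called changes. All called changes in outer medulla are red (higher); in cortex those of 8 members, Rpl34, Rplp1, Rps29, Rpl22l1, Rpl17, Rpl26, Rpl19 and Rps24, are blue (lower), and 8 of the 14 columns hold no dot.

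In cortex at LS, NOX4 had 15 members higher and 8 lower than SS, of 82 tested (28%). Of all 15179 genes tested, 22% were called, 11.7% higher and 10.3% lower, so the members' share was near the background, and their median change was 0.02 against 0.01. Of 29 small-subunit genes, 9 were higher and 2 lower. Of 50 large-subunit genes, 6 were higher and 5 lower, and of 3 stalk genes, Rplp1 was lower. Of 14 lists of cell markers, 5 had sums that did not overlap between these groups. Those of proximal tubule segment 3 were 2020 to 3760 CPM in SS and 538 to 1100 CPM in NOX4, and of adipocytes 38.7 to 68.8 and 17.7 to 36.5 CPM. Those of the distal convoluted tubule were 351 to 579 and 753 to 912 CPM, of intercalated cells 294 to 453 and 482 to 633 CPM, and of endothelium 224 to 274 and 279 to 337 CPM. All rows of these lists had counts except Pvalb of the distal convoluted tubule, at 0 in both groups, and the part of these cells in the result was not tested.

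The deposited positions of the members the results turn on are, on a build that is not given in the sources used here, Rps18 at chr20:5442390-5445509, Rps2 at chr10:14088319-14089979, Rpl34 at chr2:235850334-235852708, Rplp1 at chr8:66862143-66863476 and Rps29 at chr6:91455333-91456696.

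Rps18 had 284, 292, 215, 294 and 279 CPM in SS and 402, 379, 415, 343 and 362 CPM in NOX4. All NOX4 libraries lay above all SS libraries, a log2 difference of 0.48 (SE 0.09, adjusted p = 0.000454, edgeR). Rps2 on chromosome 10, at the mRNA entry of the small subunit, had 262 to 401 CPM in SS and 401 to 466 CPM in NOX4 (0.44, adjusted p = 0.0063), the groups meeting at 401. Rps28 had 54.5, 42.6, 28.8, 45.9 and 40.4 CPM in SS and 59.8, 61.4, 74.1, 52.8 and 55.5 CPM in NOX4 (0.52, adjusted p = 0.0184), with 1 NOX4 library inside the SS range. That call was lost without the low-complexity libraries (0.35, adjusted p = 0.254). Among large-subunit genes, Rpl35a on chromosome 5 had 0.628 to 1.8 CPM in SS and 1.91 to 3.75 CPM in NOX4 (1.15, SE 0.34, adjusted p = 0.0145), a low count. The deposited length of this row, 333 bases, fills its whole span (164923302 to 164923634), so it has no intron. Whether it is a processed copy was not tested, here or where it is named below.

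Lower in NOX4 was Rpl34, a large-subunit protein, with 189, 237, 305, 270 and 181 CPM in SS and 156, 148, 165, 121 and 127 CPM in NOX4. The groups did not overlap (-0.72, SE 0.14, adjusted p = 0.000722), and without the low-complexity libraries the difference was -0.37 (adjusted p = 0.096). Rplp1 had 554, 753, 824, 660 and 577 CPM in SS and 428, 417, 510, 399 and 376 CPM in NOX4 (-0.66, SE 0.14, adjusted p = 0.00118), again without overlap. Rps29 on chromosome 6 had 171 to 253 CPM in SS and 129 to 188 CPM in NOX4 (-0.54, SE 0.13, adjusted p = 0.00336), with a small overlap. Rpl22l1, Rpl26, Rpl19, Rpl17 and Rps24 were the other lower members, with Rpl26 at 290 to 336 CPM in SS and 210 to 260 CPM in NOX4 (-0.44, adjusted p = 0.000364). Rps7 (-0.07, adjusted p = 0.53) and Rplp0 (-0.07, adjusted p = 0.582) overlapped throughout. Without the low-complexity libraries 12 members were called, 4 higher and 8 lower, so the excess of higher calls did not hold.

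In cortex at HS7, NOX4 had 24 members higher and 4 lower than SS (34.1% of 82), against 17.4% of all genes (9.61% higher, 7.77% lower). The median change of the members was 0.16, against 0 over all genes and 0.12 over the 1891 tested genes shorter than 1000 bases. The higher members were 11 of 29 small-subunit and 13 of 50 large-subunit genes. The Rpl37 row on chromosome 10, named for a zinc-binding protein, had 7.24, 12.4, 17.1, 12.5 and 12.4 CPM in SS and 18.3, 22.8, 23.7, 21.5 and 18.4 CPM in NOX4. The libraries did not overlap (0.76, SE 0.16, adjusted p = 0.0021). Its deposited length of 347 bases fills its whole span (64336200 to 64336546), so the row has no intron. Whether it is a processed copy was not tested. Rpl36 had 95.9, 50.3, 198, 137 and 166 CPM in SS and 190 to 246 CPM in NOX4 (0.73, SE 0.22, adjusted p = 0.0247), with SS replicate 3 inside the NOX4 range. Rps18 had 245 to 345 CPM in SS and 352 to 434 CPM in NOX4 (0.50, SE 0.09, adjusted p = 0.000553), with no overlap.

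The 4 lower members at HS7 were Rpl34 (-0.54, adjusted p = 0.00951), Rplp1 (-0.55, adjusted p = 0.00701), Rps29 on chromosome 6 (-0.46, adjusted p = 0.0136) and Rpl22l1 (-0.44, adjusted p = 0.00361). Rplp1 had 802, 505, 397, 788 and 632 CPM in SS and 383 to 473 CPM in NOX4: SS replicate 3 lay among the NOX4 libraries. That replicate was also the lowest SS library for Rpl34 (126 CPM) and Rps29 (128 CPM) and the highest for Rps18 (345 CPM). Without the low-complexity libraries Rpl34 (-0.35, adjusted p = 0.0554), Rplp1 (-0.26, adjusted p = 0.114) and Rpl36 (0.64, adjusted p = 0.0632) lost the call. A fit of the compared groups alone called 1 member, and leaving out SS HS7 cortex replicate 2 left 17. SS replicates 1 and 2 stood apart in segment 3 markers, 7 of 7 with counts, at 3350 and 2560 CPM against 677 to 757 in the other 3 SS libraries and 619 to 1480 in NOX4, and were the lowest SS libraries for Rpl36 and Rps18. Without replicate 1 alone 25 members were called. NOX4 replicates 3 and 4, whose library names carry numbers after those of all others, stood apart in markers. Red blood cell markers, 4 of 4 rows with counts, summed to 10.6 and 16.6 CPM in them, to 169 to 356 CPM in the other 3 NOX4 libraries and to 130 to 237 CPM in SS. Dividing cell markers, 5 of 5, summed to 4.51 and 4.25 CPM in them, to 39.8 to 56.1 CPM in the other 3 and to 63.2 to 78.8 CPM in SS, and were the only one of the 14 lists without overlap between the strains. Without these 2 libraries, chosen after seeing the data, 14 members were higher and 1 lower. Rplp1 (-0.50, adjusted p = 0.0573), Rps29 (-0.46, adjusted p = 0.0621) and Rpl36 (0.63, adjusted p = 0.131) no longer passed, and Rpl34 did (-0.56, adjusted p = 0.0452).

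In SS cortex, 21 days of high salt against LS gave 17 members higher and 6 lower (28% of 82), against 16.5% of all genes (8.42% higher, 8.04% lower). The median was 0.09 against 0.01. Small-subunit genes made up 10 of the 17 higher members. Sums of 4 of the 14 marker lists did not overlap, all their rows having counts: segment 3 at 2020 to 3760 CPM at LS and 698 to 1790 CPM at HS21, fibroblast and smooth muscle at 386 to 452 and 501 to 630 CPM, macrophage at 83.5 to 115 and 117 to 161 CPM, and lymphocyte at 21.5 to 35.3 and 36 to 55.9 CPM. Their part was not tested. Rps18 had 333 to 407 CPM (0.43, adjusted p = 0.00177) and Rps2 had 407 to 541 CPM (0.51, adjusted p = 0.00337), both without overlap. Rpl8 had 6.84, 6.91, 5.61, 6.87 and 7.44 CPM at LS and 10.4, 9.22, 9.32, 11 and 9.61 CPM at HS21 (0.55, SE 0.15, adjusted p = 0.0108). The 6 lower members were Rpl34 (138 to 165 CPM at HS21, -0.68, adjusted p = 0.00199), Rplp1 (376 to 488 CPM, -0.68, adjusted p = 0.00153), Rps29 on chromosome 6 (123 to 150 CPM, -0.67, adjusted p = 0.000977), Rpl22l1, Rpl26 and Rpl19. Each of these 6 had no overlap between the groups. This comparison shares its LS libraries with the strain comparison at LS. Scaling by library total moved the median of all genes to 0.11 and gave 27 members higher and 5 lower. Without the low-complexity libraries 5 members were called, 2 higher and 3 lower. Rpl34 (-0.32, adjusted p = 0.17), Rplp1 (-0.43, adjusted p = 0.0545) and Rpl8 (0.47, adjusted p = 0.0617) then lost the call (edgeR). Rps29 on chromosome 6 kept it (-0.84, adjusted p = 0.00567).

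Rpl35a on chromosome 12 at 7424258 was also called at HS21, and is a row that most libraries did not have. It had 5, 0, 2.24, 2.79 and 0.0377 CPM in SS cortex at HS21, and 0 in 4 of the 5 libraries at LS. Its presence differed between libraries of 1 group in both tissues, and a fitted fold change of such a row is no bound.

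Cortex gave no called member in 4 comparisons. NOX4 against SS at HS21 called 1% of all genes and no member (6 at an unadjusted p under 0.05 by edgeR, and 0 called by DESeq2). The authors' deposited table had 6 members higher and 0 lower for this comparison, beside 9.38% of all genes. SS at HS7 against LS called 2.25% of genes and no member (5 unadjusted, 0 by DESeq2). In NOX4, HS7 and HS21 against LS called 0 of the 15179 genes (0 and 0 percent), with 7 and 9 members at an unadjusted p under 0.05 and 0 by DESeq2. Members had median changes of 0.09 and 0.14 there.

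The change with 21 days of salt differed between the strains for 5 members in cortex, all higher in NOX4 than in SS, against 1.08% of all genes (0.514% higher, 0.567% lower). They were Rplp1 (0.79, SE 0.19, adjusted p = 0.0414), Rps29 on chromosome 6 (0.75, SE 0.18, adjusted p = 0.0369), Rpl22l1 (0.55, SE 0.14, adjusted p = 0.0461), Rpl26 (0.52, SE 0.11, adjusted p = 0.0249) and Rpl19 (0.45, SE 0.11, adjusted p = 0.0361). Each had its highest group mean of these 4 groups in SS at LS. Rplp1 had group means of 674 CPM there, 420 CPM in SS at HS21, and 426 CPM in NOX4 at LS. Scaling by library total called 0 of them, and leaving out any 1 of 16 of the 20 libraries left 2 or fewer. Without the low-complexity libraries Rplp1 (0.53, adjusted p = 0.137) and Rpl22l1 (0.48, adjusted p = 0.137) lost the call (edgeR). Only Rps29 on chromosome 6 stayed called (0.92, adjusted p = 0.0467).

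In outer medulla at LS, NOX4 had 6 members higher and none lower than SS (7.23% of 83), against 14.8% of all 15799 genes (8.8% higher, 6.05% lower). A fit of these 2 groups alone called 14 of 79, 11 of them higher, against 18.3% of all genes, and leaving out NOX4 LS replicate 4 left 3. Among the 6 were Rps18, Rps2, Rpl13a, Rpl36 and Rpl35a on chromosome 5. Rps2 had 272, 288, 355, 318 and 269 CPM in SS and 595, 495, 501, 547 and 394 CPM in NOX4 (0.75, SE 0.14, adjusted p = 0.00136), without overlap. Rps18 had 230 to 311 CPM in SS and 333 to 453 CPM in NOX4, also apart (0.59, adjusted p = 0.0201). Rpl34 (-0.46, adjusted p = 0.0977) and Rplp1 (-0.62, adjusted p = 0.0521) missed the threshold, although neither overlapped between strains. Scaling by library total gave 4 higher and 3 lower, and without the low-complexity libraries 2 members were called. Of the 14 marker lists, 3 did not overlap, all their rows having counts: dividing cell at 87.8 to 103 CPM in SS and 28.4 to 69.8 CPM in NOX4, adipocyte at 56.2 to 73.1 and 97.8 to 148 CPM, and lymphocyte at 83.5 to 117 and 72.6 to 79.8 CPM. Segment 3 had a median of 1280 CPM in SS and 3890 CPM in NOX4. Their part in the result was not tested.

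In outer medulla at HS7, NOX4 had 20 members higher and none lower (24.1% of 83), against 9.61% of all genes (5.23% higher, 4.39% lower). The median change was 0.39, against -0.02 over all genes and 0.2 over the 2092 tested genes under 1000 bases. The 20 were 12 of 29 small-subunit and 8 of 51 large-subunit genes. Rps2 had 301, 288, 351, 322 and 377 CPM in SS and 481, 575, 689, 860 and 550 CPM in NOX4, without overlap (0.94, SE 0.14, adjusted p = 0.000384). Rpl36 had 206, 152, 222, 144 and 184 CPM in SS and 245, 282, 430, 495 and 232 CPM in NOX4 (0.89, SE 0.19, adjusted p = 0.00673), also apart. Rps6 had 1.98 to 4.91 CPM in SS and 3.42, 4.75, 8.55, 33.3 and 4.05 CPM in NOX4 (1.5, SE 0.43, adjusted p = 0.0281). Its call rests on replicate 4, without which the difference was 0.44 (adjusted p = 0.413).

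Replicates 3 and 4 carried most of that comparison. In 77 of the 83 tested members both lay above the other 3 NOX4 HS7 replicates, with a median log2 difference of 0.73 (1 CPM added). In 1 member both lay below. The same share over all genes was not computed, so this count cannot be called particular to the members. Marker genes differed in the same libraries. The 6 thick ascending limb markers, all detected, summed to 5950 and 6480 CPM in these replicates and to 13400 to 16800 CPM in the other 3, against 8450 to 16500 CPM in SS at HS7. The 5 principal cell markers summed to 3280 and 3720 CPM against 1280 to 2210 in the other 3 and 456 to 1730 in SS. The 5 intercalated cell markers summed to 1110 and 1290 CPM against 423 to 490 and 254 to 633, and 4 red blood cell markers of 5 to 1250 and 1630 CPM against 343 to 801 and 608 to 940. No marker of these 4 lists was at 0 in either group. The part of tissue composition in the result was not tested. Without the 2 libraries, an alternative chosen after seeing the data, 1 member was called, Rps2 (0.71, adjusted p = 0.0186), and the median was 0.05. Without replicate 3 alone 6 members were called, and without replicate 4 alone 5. SS replicate 3 also stood apart: early proximal tubule markers summed to 10100 CPM against 495 to 3670 in the other 4 SS libraries, principal cell markers to 456 against 1140 to 1730, intercalated cell markers to 254 against 514 to 633, and adipocyte markers to 181 against 63.4 to 108. Leaving out SS replicate 2 gave 7, SS replicate 3 gave 34, and NOX4 replicates 1 and 5 gave 35 and 36. A fit of the 2 groups alone called 0.

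In SS outer medulla, 21 days of high salt gave 22 members higher and none lower (26.5% of 83), against 9.86% of all genes (5.29% higher, 4.56% lower). The median change was 0.33, against 0.02 over all genes and 0.15 over tested genes under 1000 bases. They were 11 of 29 small-subunit and 11 of 51 large-subunit genes. Rps2 had 789, 616, 554, 699 and 572 CPM at HS21, every library above the LS maximum of 355 CPM (1.10, SE 0.14, adjusted p = 4.08e-05). Rps18 had 230 to 311 CPM at LS and 426 to 510 CPM at HS21 (0.79, SE 0.17, adjusted p = 0.00375), again apart. Rps16, a small-subunit protein, rose from 439 ± 58.1 to 634 ± 16.3 CPM (0.53, adjusted p = 0.00251). Rpl35a on chromosome 5 had 0.277 to 2.56 CPM at LS and 3.34 to 5.16 CPM at HS21 (1.66, SE 0.39, adjusted p = 0.00815).

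In the same comparison Rplp1 (-0.36, adjusted p = 0.301), Rpl34 (-0.33, adjusted p = 0.283) and Rps29 on chromosome 6 (-0.33, adjusted p = 0.292) had negative values that did not pass. Thick ascending limb markers, 6 of 6, summed to 16500 to 21000 CPM at LS and 10100 to 14600 CPM at HS21. Fibroblast and smooth muscle markers, also 6 of 6, summed to 740 to 1220 and 1090 to 2560 CPM. Podocyte (183 to 271 against 148 to 168 CPM), endothelium (295 to 383 against 240 to 263 CPM) and adipocyte sums (56.2 to 73.1 against 75.2 to 119 CPM) did not overlap, nor did those of the thick ascending limb, while the fibroblast and smooth muscle sums did. No marker row of these 5 lists was at 0, and their part in the result was not tested. Without the low-complexity libraries 12 members were called, and without SS HS21 replicate 4, 14.

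The other outer medulla comparisons called no member. NOX4 against SS at HS21 called 1.63% of genes and had 0 members even at an unadjusted p under 0.05 (edgeR, with 0 called by DESeq2). The authors' deposited table had 0 members higher and 3 lower for this comparison, beside 25.6% of all genes. SS at HS7 against LS called 2.37% of genes (3 members unadjusted, and 1 called by DESeq2). HS7 against LS in NOX4 called 0% of genes, with 24 members at an unadjusted p under 0.05, 0 by DESeq2 and a median of 0.30, which was -0.06 without replicates 3 and 4. HS21 against LS in NOX4 called 0% of genes, with 0 members unadjusted and 0 by DESeq2. The strain difference in the salt change called 0.0253% of genes and no member (11 unadjusted, 2 by DESeq2).

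Some members were called in several comparisons that share no library. Of the 15 members higher in NOX4 cortex at LS, 13 were also higher at HS7 (86.7% of the 15 and 54.2% of the 24), and the 4 lower at HS7 were among the 8 lower at LS. In outer medulla 5 members were higher at both (83.3% of 6 and 25% of 20). Members higher in NOX4 against SS at HS7 and in SS at HS21 against LS numbered 14 in cortex (58.3% of 24 and 82.4% of 17) and 13 in outer medulla (65% of 20 and 59.1% of 22). Between tissues, 16 members were higher with 21 days of salt in both (94.1% of the 17 in cortex and 72.7% of the 22 in outer medulla). Among them were Rps2, Rps3, Rps10, Rps16, Rps18, Rps20 and Rps23. The 16 include the Rpl35a row on chromosome 12 at 7424258, which most libraries did not have. For NOX4 against SS the tissues shared 4 higher members at LS (26.7% and 66.7%) and 14 at HS7 (58.3% and 70%). No lower member was shared between the tissues, since outer medulla had none in these comparisons. Each of these comparisons has SS at LS or HS7 on 1 side. The overlap over all genes was not computed, so none of these shares can be called particular to the members.

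The balance between some members separated most SS libraries at LS and HS7 from the rest. The log2 ratio of Rps18 to Rplp1 (chromosome 8) counts within a library, a pair chosen after their values were seen, depends on no scaling between libraries. In cortex Rps18 was called higher and Rplp1 lower in NOX4 than in SS at LS and HS7. A separation of these groups thus partly follows from the choice of the pair. In the 20 cortex libraries outside SS LS and SS HS7 the ratio lay between -0.30 and 0.06 (median -0.15). In the 10 SS LS and SS HS7 cortex libraries it lay between -1.94 and -0.20 (median -1.14). In outer medulla the 20 others lay between -0.41 and 0.08 and the 10 SS LS and HS7 libraries between -1.76 and -0.08 (median -1.32). So 18 of the 20 SS LS and HS7 libraries lay below every other library of their tissue, and 2 lay among the others: SS HS7 cortex replicate 3 (-0.20) and SS HS7 outer medulla replicate 5 (-0.08).

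**Figure D4:**
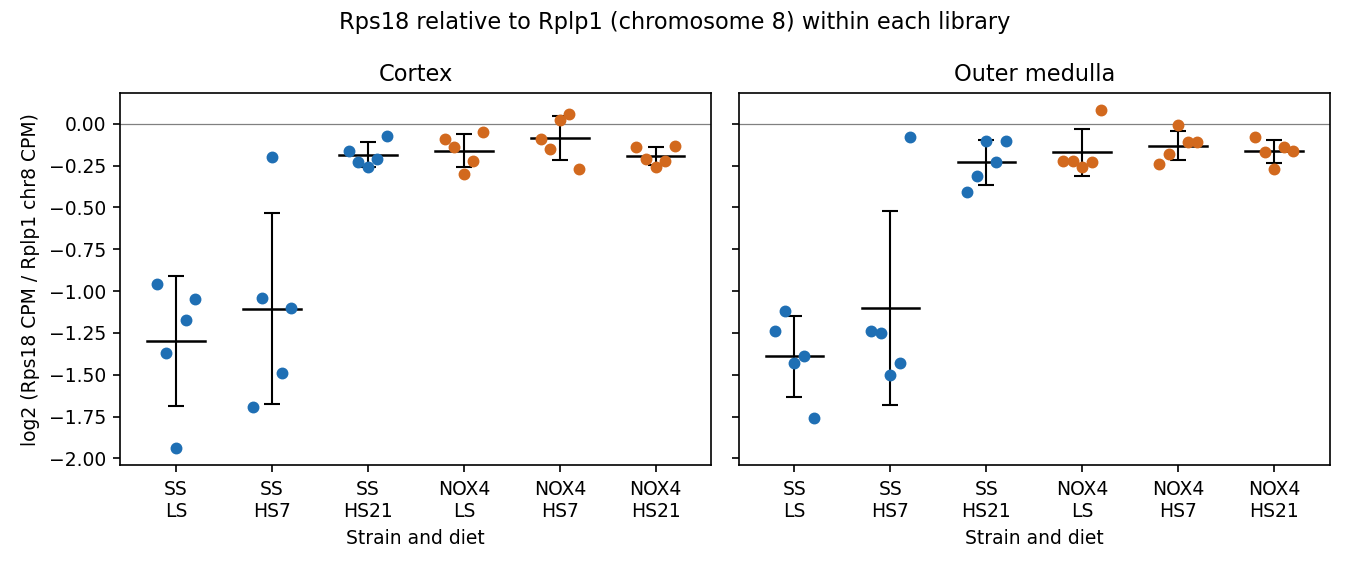
Log2 ratio of Rps18 to Rplp1 (chromosome 8) counts in each of the 60 libraries, by strain and diet, for cortex and outer medulla (log2 axis), with the group mean and SD as bars. In both tissues 9 of the 10 SS LS and SS HS7 libraries lie below all 20 others.

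Rps2 over Rpl19 was a pair chosen in the same way, its genes called higher and lower in NOX4 cortex at LS. For this pair 9 of 10 SS LS and HS7 libraries lay below all others in cortex and 10 of 10 in outer medulla. Of the 18 libraries with a low Rps18 to Rplp1 ratio, 11 were the low-complexity libraries and 7 were not (-1.39 to -0.96). The 18 held 11.5 to 18.8 M counts, the 40 libraries of the other groups 14.8 to 29.6 M, and the 2 exceptions 19.3 and 22.1 M. Library size and complexity thus moved with the groups, and strain and diet cannot be told apart from these library properties. Their part in the called changes was not tested beyond the fits without the low-complexity libraries.

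Between tissues, outer medulla had 48 members higher and 5 lower than cortex, of 84 tested (63.1%), averaged over the 6 strain and diet groups. Of all 16326 genes 71.6% were called, 37.6% higher and 34% lower, so the members were called about as often as other genes and more often in 1 direction. Their median was 0.20 against 0.03. Higher were 19 of 30 small-subunit genes, 28 of 51 large-subunit genes and 1 of 3 stalk genes. Levels for this comparison are CPM scaled over all 60 libraries. Rps24, a gene mutated in some cases of Diamond-Blackfan anaemia, ran from 150 to 224 CPM (median 177) in cortex and from 180 to 412 CPM (median 252) in outer medulla (0.49, SE 0.05, adjusted p = 1.83e-11). Rps16 (0.36, adjusted p = 3.93e-12), Rpl34 (0.35, adjusted p = 2.09e-05), Rpl3 (0.30, adjusted p = 2.95e-11), Rps7 (0.30, adjusted p = 1.92e-07) and Rplp0 (0.29, adjusted p = 3.02e-08) were also higher. Rpl3 helps to form the peptidyl transferase centre. Rps19 was higher by 0.47, with 12.6 to 76.2 CPM in cortex and 17 to 134 CPM in outer medulla. Of the 84 tested members, 0 were without overlap between the libraries of the 2 tissues. Rps6 was higher by 0.40 (adjusted p = 0.0116), and by 0.15 (adjusted p = 0.208) without NOX4 HS7 replicates 3 and 4.

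Among the 5 lower in outer medulla were Rps20 (117 to 347 CPM against 142 to 339 in cortex, -0.31, adjusted p = 3.98e-06), Rps18 (-0.14, adjusted p = 0.0249), Rpl7 and Rpl10l, a row of few counts (-0.78). Their libraries overlapped widely. Scaling by library total moved the median of all genes to 0.39 and gave 77 members higher and 0 lower, with Rps20 at 0.04: none of the 5 was called lower there. Without the SS LS and SS HS7 groups, an alternative chosen after seeing the data, 51 members were higher and 3 lower. The tissues differ in their cell types, as the marker sums above show, and a tissue difference and a difference in cell make-up cannot be told apart.

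**Figure D5:**
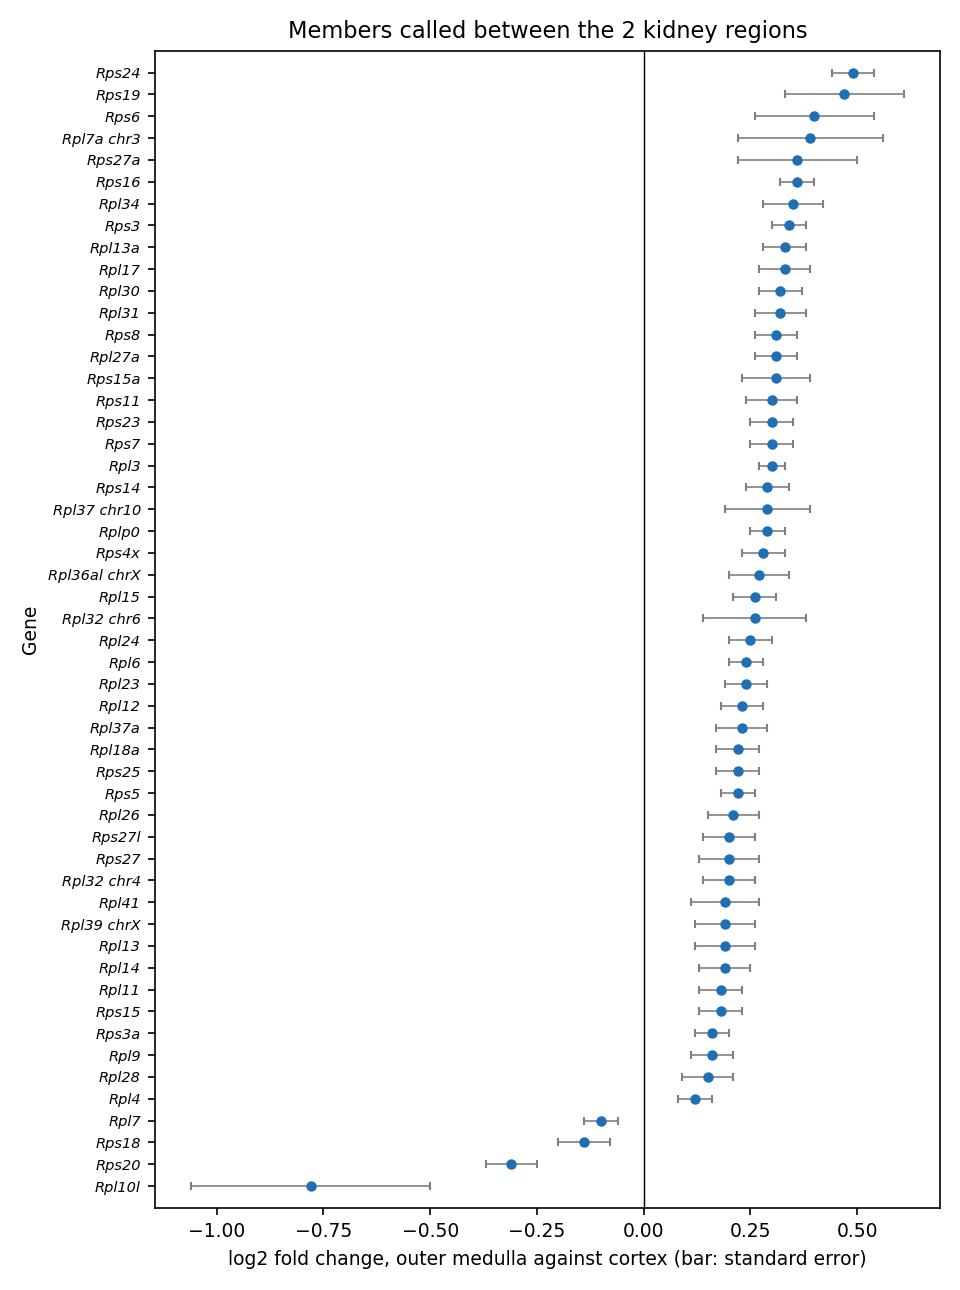
Log2 difference of outer medulla against cortex for 52 called members, averaged over the 6 strain and diet groups, with its standard error as a bar, ordered by value. Above 0 lie 48 points, from Rps24 at 0.49 downward, and below 0 lie 4, with Rps20 at -0.31 and Rpl10l at -0.78 the lowest.

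Other genes of the translation machinery, from lists chosen for this tissue and pathway, did not follow the members in each comparison. Mitochondrial ribosomal protein genes, which serve the separate ribosome of that organelle, had 13 of 73 higher and 2 lower in NOX4 cortex at LS, and 13 higher and 0 lower at HS7. Over all genes, as given above, 11.7% were higher and 10.3% lower in NOX4 cortex at LS, and 9.61% and 7.77% at HS7. In outer medulla they had 20 and 15 of 73 higher at LS and HS7 and none lower, and 3 higher in SS at HS21 against LS (all genes: 8.8%, 5.23% and 5.29% higher). Between tissues 54 of 73 were lower in outer medulla and 1 higher, where the cytosolic members were mostly higher. Their median there was -0.25.

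Translation initiation factors had 2 of 36 higher and 11 lower in NOX4 cortex at LS, 4 and 8 at HS7, and 2 and 10 in SS cortex at HS21, where 10.3%, 7.77% and 8.04% of all genes were lower. In outer medulla they had 4 and 4, 4 and 1, and 2 and 2 in the same comparisons. Of all genes 8.8%, 5.23% and 5.29% were higher there, and 6.05%, 4.39% and 4.56% lower. Eif5b, which joins the subunits, differed by -0.49 (SE 0.10, adjusted p = 0.000698) in NOX4 cortex at LS and by -0.46 in SS with 21 days of salt. Eif4h, a helper of the eIF4A helicase, differed by 0.43 (SE 0.08, adjusted p = 0.000402) in NOX4 cortex at LS. It was also higher in NOX4 cortex at HS7 (0.41) and NOX4 outer medulla at LS (0.50), and in SS outer medulla at HS21 against LS (0.41). Eif4e, the cap-binding protein, was lower in SS cortex at HS21 (-0.45, SE 0.08, adjusted p = 0.000736). Of 9 elongation factors, 3 were higher and none lower in SS outer medulla at HS21: Eef2 (0.42, adjusted p = 0.00228), Eef1a1 (0.41) and Eef1g (0.37), whose mRNAs also carry TOP motifs. Of all genes 5.29% were higher and 4.56% lower there. Elsewhere 2 of the 9 were higher in NOX4 cortex at LS, 1 at HS7, 2 in SS cortex at HS21 and 1 in NOX4 outer medulla at LS, with none lower.

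Among mTOR pathway genes, 6 of 28 were higher and 4 lower in NOX4 cortex at LS, where 22% of all genes were called. Tsc1, an inhibitor of mTORC1, was lower there (-0.60, SE 0.10, adjusted p = 0.000177) and in outer medulla at LS (-0.64, adjusted p = 0.0134). It was also lower in NOX4 outer medulla at HS7 (-0.55, adjusted p = 0.0376) and in SS cortex at HS21 against LS (-0.48, adjusted p = 0.00162). Rps6kb1, the S6 kinase, was lower in NOX4 outer medulla at LS (-0.43, adjusted p = 0.0209). Of the 28 mTOR pathway genes, 4 were higher and 3 lower in SS cortex at HS21 against LS, where 16.5% of all genes were called. In SS outer medulla 2 were higher and 1 lower, where 9.86% of all genes were called. In SS with 21 days of salt, Myc, a transcription factor that raises ribosome production, was higher in cortex (1.02, SE 0.22, adjusted p = 0.00284) and in outer medulla (0.78, SE 0.22, adjusted p = 0.0225). In outer medulla Eif4ebp1, a repressor of cap-dependent translation, was higher too (1.13, SE 0.25, adjusted p = 0.00607) and Mtor itself lower (-0.41, SE 0.11, adjusted p = 0.0184), and in cortex Eif4ebp2, a related repressor, was lower (-0.34, adjusted p = 0.00561). Assembly factors for the ribosome had 5 of 52 higher and 9 lower in NOX4 cortex at LS, near the share of all genes (11.7% higher, 10.3% lower). Dkc1, the pseudouridine synthase of ribosomal RNA, was higher in NOX4 at HS7 in cortex (0.80, SE 0.12, adjusted p = 0.00019) and in outer medulla (0.99, SE 0.16, adjusted p = 0.000949). It was also higher in NOX4 outer medulla at LS (0.63, adjusted p = 0.0118) and in SS outer medulla at HS21 against LS (0.53, adjusted p = 0.0359). RNA polymerase I genes had 1 of 12 higher and 2 lower in NOX4 cortex at LS, beside the same 11.7% and 10.3% of all genes. Ribosomal proteins whose names fall outside the rule had 4 tested genes, among which Fau was higher in NOX4 outer medulla at LS (1.02, adjusted p = 0.048) and Gnb2l1, which codes for Rack1, in SS at HS21 (0.30, adjusted p = 0.024). Of 8 other TOP mRNAs, Npm1 was lower in NOX4 cortex at LS (-0.26, adjusted p = 0.016).

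In the authors' deposited table of tests, at an adjusted p under 0.05, members higher and lower in cortex numbered 18 and 10 for NOX4 against SS at LS, 14 and 4 at HS7, 6 and 0 at HS21, and 23 and 8 for SS at HS21 against LS. Of all genes with a p-value in the authors' deposited table, 16.6%, 7.1%, 9.38% and 15.1% passed there. In outer medulla the authors' deposited table had 16 and 5, 2 and 0, 0 and 3, and 41 and 2 for the same comparisons. There 17.1%, 1.1%, 25.6% and 13% of all genes passed in the authors' deposited table, so at HS21 the 3 of 98 members stand beside 25.6% of all genes. The authors' deposited table had 0 members for the other 6 salt comparisons.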

How the data were processed

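Poly(A) RNA sequencing of 60 rat kidney libraries was analysed from the deposited gene table. Per the submitters' processing notes, the tools named are HISAT2 2.0.5, StringTie 1.3.3b and featureCounts 1.5.0-p3; the genome build, strandedness and the treatment of reads with several matches are not given in the sources used here. For each gene and library the authors deposited a raw count and an FPKM value, per the file headers. For their own comparisons the authors deposited log2 changes with a raw and an adjusted p-value. All results rest on the counts, except where the authors' table is named; names, positions and lengths of genes are the deposited ones. The members, gene lists and pairs were chosen with earlier results of these data known.

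In R 4.3.3 with edgeR 4.0.16 (limma 3.58.1), genes passed filterByExpr by group, counts were scaled by TMM, and a quasi-likelihood F test used 1 coefficient per group over the 30 libraries of a tissue, or all 60 between tissues. Adjustment over all tested genes used the Benjamini-Hochberg method. The SE is the log2 fold change divided by the square root of F. TPM was computed from counts and deposited lengths. A low-complexity library had no count, in its full unthinned counts, in at least 10 genes whose tissue median lies between 2 and 5 CPM. Zeros of this kind also depend on library depth. Libraries were thinned to 10 M counts only to give the number of genes at 10 M counts. Reads carry no molecular identifiers, so intervals and limits cover counting error only.

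Named members are, per comparison, the 3 highest and 3 lowest log2 changes among called members, the 4 highest and 4 lowest levels, paralogues, the 3 largest strain differences in the salt change, and the 4 largest tissue differences each way; of each other list up to 3 called genes. Some of these are not reported here, but stay in all counts. Rps7, Rplp0, Rpl3, Rps3, Rps10, Rps16, Rps20, Rps23, Rpl13a, Rpl17, Rpl7, Rplp2 and further values of named members outside their own comparison were chosen after their values were seen. Alternatives were DESeq2 1.42.0, its size factors, library totals, no filter, the replicate block, the compared groups alone, no low-complexity libraries, and each library left out.

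The test was tried on simulated counts for NOX4 against SS at LS. These were drawn independently, with 1 mean and 1 spread per gene in all groups apart from the set changes. Low-complexity libraries and differences in cell make-up were not simulated. The calls among unchanged genes therefore cannot be carried over to the real comparison. In cortex (15046 genes) it called 59.1%, 56.1% and 93.8% of genes changed 1.5, 2 and 4-fold, with 8 calls among unchanged genes. In outer medulla (15697 genes) it called 17.9%, 59.7% and 81.8%, with 4. Figures and promoter windows were made with Python 3.11.15, pandas 2.3.3, numpy 2.4.6 and matplotlib 3.10.9.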

Additional observations from a re-analysis of the deposited data

Results flagged for a closer look

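In 264 groups of 5 libraries (20 members, the share of counts and the log2 ratio of Rps18 to Rplp1, in 12 groups each), 23 had 1 library set apart from the other 4 by more than 0.71 of the group's range. Chance sets apart about 1 in 20 groups where values are independent and normally distributed. Here CPM were taken without a log, the members share the same libraries, and some were chosen after their values were seen. The 23 therefore cannot be weighed against that rate. The share of counts in members was highest in SS LS outer medulla replicate 3, at 2.12%. The same replicate was highest for Rpl26 (520 CPM) and Rpl8 (12.3 CPM). SS LS cortex replicate 3 was lowest for Rps18 (215 CPM) and highest for Rpl22l1 (70.4 CPM). NOX4 LS cortex replicate 3 was highest for Rpl36 (256 CPM) and Rps24 (176 CPM). Rpl35a on chromosome 5 was highest in SS HS7 cortex replicate 3 (2.32 CPM) and in NOX4 HS7 cortex replicate 1 (3.22 CPM). Rpl22l1 was lowest in SS HS21 cortex replicate 2 (34.6 CPM) and NOX4 HS21 outer medulla replicate 5 (49.3 CPM). Rps6 stood at 33.3 CPM in NOX4 HS7 outer medulla replicate 4, and Rps19 at 19 CPM in SS HS7 outer medulla replicate 4. The log2 ratio of Rps18 to Rplp1 was highest in SS HS7 outer medulla replicate 5 (-0.08) and in NOX4 LS outer medulla replicate 5 (0.08).

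The 2 Rpl7a rows on chromosome 3 gave 8 of the 23. The row at 4867233 had 98.7 CPM in SS HS7 cortex replicate 2, 42.9 CPM in NOX4 LS cortex replicate 3, 52 CPM in NOX4 HS7 cortex replicate 3, 124 CPM in NOX4 LS outer medulla replicate 2 and 65.5 CPM in NOX4 HS21 outer medulla replicate 1. The row at 5459160 had 53.8 CPM in SS LS cortex replicate 2, 26.2 CPM in NOX4 HS7 cortex replicate 3 and 81.8 CPM in SS HS21 outer medulla replicate 4. Rpl7a is a protein of the large subunit.

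The change with 21 days of salt differed between strains in cortex, by the interaction test, for 5 members. They were Rpl19 (0.45), Rpl22l1 (0.55), Rpl26 (0.52), Rplp1 (0.79) and Rps29 on chromosome 6 (0.75), each a log2 difference. Scaling by library total called 0 of these. Without the low-complexity libraries only Rps29 stayed called (0.92, adjusted p = 0.0467, edgeR).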

How the results depend on the processing

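The SS libraries at LS and HS7 are shallower than most others and 11 are of low complexity. Without the low-complexity libraries the members called were 12 in cortex for NOX4 against SS at LS, 5 for SS at HS21 against LS and 1 for the strain difference in the salt change, and in outer medulla 2 and 12 for the first 2 of these. The compared groups alone gave, in cortex, 2 for NOX4 against SS at HS21, 1 at HS7 and 8 for the strain difference in the salt change, and in outer medulla 1 at HS21, 0 at HS7, 14 at LS and 3 for the strain difference. The NOX4 HS7 replicates 3 and 4 left out (chosen after seeing the data) gave 15 in cortex and 1 in outer medulla at HS7. The strain difference in cortex had 0 by library totals and 2 with no filter. DESeq2 gave 1 for SS at HS7 against LS and 2 for the strain difference in outer medulla. Rps20 turned from lower to higher between tissues by library totals (0.04), a scaling that moved the median of all genes from 0.03 to 0.39. The cause of the other changes was not tested.

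Leaving out 1 library at a time gave in cortex 14 to 24 for NOX4 against SS at LS (14 without SS LS replicate 3), 17 to 33 at HS7 (17 without SS HS7 replicate 2), 17 to 24 for SS at HS21 against LS, 0 to 1 for SS at HS7 against LS (1 without SS HS7 replicate 3) and 0 to 6 for the strain difference. The last had 0 without NOX4 LS replicate 4, 1 without SS LS replicate 2, SS HS21 replicates 2, 4 or 5, NOX4 LS replicates 1, 2 or 5 or NOX4 HS21 replicates 3, 4 or 5, and 2 without SS LS replicates 3 or 4, SS HS21 replicates 1 or 3 or NOX4 HS21 replicate 2. In outer medulla the ranges were 3 to 9 at LS (3 without NOX4 LS replicate 4), 5 to 36 at HS7, 14 to 25 for SS at HS21 against LS (14 without SS HS21 replicate 4) and 0 to 1 for SS at HS7 against LS (1 without SS LS replicate 1 or SS HS7 replicate 2), and 50 to 59 between tissues. The other comparisons had 0 throughout.

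Over 75 same-numbered pairs from different groups the mean correlation of deviations was 0.02 in cortex and -0.01 in outer medulla. Between cortex and outer medulla of 1 strain, diet and number it was 0.02 over 30 pairs, against -0.01 for other numbers. Of 30 cortex libraries, 9 correlated best with the outer medulla library of their own number. These values cannot exclude that both tissues came from the same rats. The main tissue comparison took the 60 libraries as independent. With the replicate block, the strain difference in the salt change in cortex had 2 members called, and no other count moved by over 1.5 times. Over the named members' alternatives, 1085 values kept their direction and side of the threshold, 111 no longer passed it, 3 newly passed, 1 turned, and 2 values of the Rps29 row on chromosome 3 moved between tissues.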
